A study of Mus musculus with 304 samples.

Results

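Id2 and 9 genes that work with helix-loop-helix proteins were followed through single dentate granule cells of the mouse. The 10 genes are Id2, the E proteins Tcf3, Tcf4 and Tcf12, the neuronal activators Neurod1 and Neurod2, the repressors Bhlhe22, Bhlhe40 and Hes5, and the corepressor Tle1. They were taken by gene symbol, and all 10 have a row among the 22800 genes of the deposited count table.

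Helix-loop-helix proteins bind DNA in pairs, and each partner of a pair brings a basic region that touches an E-box, the sequence CANNTG. E proteins are the widely expressed partners, and factors such as Neurod1 and Neurod2 pair with them to switch on neuronal genes. Id proteins carry the pairing domain without the basic region, so a pair that holds an Id protein does not bind DNA. Groucho proteins such as Tle1 are recruited by Hes and other repressors and silence the genes those bind.

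Each library is 1 neuron whose cytosol was taken up through a recording pipette (Patch-seq). Kainic acid, which activates glutamate receptors and provokes seizures, was injected into the hippocampus in a volume of 70 nl at 5 mM. Cells came from the injected side on day 1 (58 cells), from day 14 (29 cells, side not labelled) and from uninjected mice (31 cells, the controls). A further set came 1 month after injection of an adeno-associated virus (AAV) for Id2 (71 cells) or for GFP (59 cells). Strain, sex, age, the AAV serotype and its promoter are not stated in the labels.

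No label names an animal. Each group therefore counts as 1 sample, no difference between groups was tested, and no p-value was computed. Levels are CPM, the reads of a gene summed over a group's cells and scaled by the group's total. Intervals at 95% are exact Poisson ones for levels and exact Clopper-Pearson ones for shares, and they cover counting error only and not the spread between cells or animals. A log2 ratio was taken after adding 1 CPM to each group, while folds are ratios of CPM without that addition. A gene was measured in a comparison if a group reached 5 CPM and a group had a read in at least 20% of its cells, and it was called higher or lower at a 2-fold ratio on the log2 scale. Kainate and control cells carry different title series, and the title numbers of day 1 and day 14 do not overlap, so an effect of treatment and one of batch cannot be told apart in those comparisons. Both virus groups have title numbers up to 95 (43 Id2 and 43 GFP cells) and title numbers over 100 (28 Id2 and 16 GFP cells). No number belongs to both groups, which take separate blocks of numbers within each range, so the 2 sets of titles do not match the groups cell by cell.

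Reads per cell ranged from 780899 to 12639081 with Id2 virus, from 312004 to 7596250 with GFP virus, from 2655957 to 27708910 on day 1, from 3316541 to 16659669 on day 14 and from 32487 to 7923833 in controls. The granule cell label was checked on 10 markers. Prox1, the transcription factor that defines granule cells, had a read in 61.3% to 81.03% of the cells of each group, and all 10 markers had a read in each group except Lct, at 0 in controls. The summed level of the 10 was not even, at 2711 CPM with Id2 virus, 4071 with GFP virus, 3820 in controls, 1719 on day 1 and 1709 on day 14. Calb1, which codes for calbindin, stood at 1249 CPM in controls, 411 CPM on day 1 and 702 CPM on day 14. C1ql2, a synaptic protein of mossy fibres, stood at 366 CPM with Id2 virus, 857 with GFP virus, 482 in controls, 176 on day 1 and 112.7 on day 14. The part of these marker levels in the results was not tested. RNA of microglia, the immune cells of the brain, was present too. The summed CPM of 14 microglia markers had a median per cell of 87.2 with Id2 virus, 3.56 with GFP virus, 1364 in controls, 46.3 on day 1 and 3454 on day 14. It reached 1000 CPM in 11 of 71 Id2 cells, 2 of 59 GFP cells, 17 of 31 control cells, 7 of 58 day 1 cells and 20 of 29 day 14 cells. P2ry12, a marker of resting microglia, was at 0 on day 1, and each of the other groups had a read of all 14 markers.

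The promoter letters of 5 genes on which the results turn show where E-boxes lie near Id2 itself, near genes that differed with it and near Tle1. RefSeq windows of 250 bases before the transcript start (GRCm38.p6) were matched by symbol for Id2, Tcf3, Tcf12, Neurod1, Neurod2, Tle1 and Hes5, 7 of the 10 genes. Tcf4 was left out of this match, and no window was found for Bhlhe22 and Bhlhe40. The letters below run 5′ to 3′ on the minus strand, end where an untranslated region is annotated in GENCODE, and show each CANNTG in capitals. CANNTG reads the same on both strands.
Id2, chr12:25096254-25096342: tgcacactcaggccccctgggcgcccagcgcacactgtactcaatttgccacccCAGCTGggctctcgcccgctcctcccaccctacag
Tcf12, chr9:72111872-72112069: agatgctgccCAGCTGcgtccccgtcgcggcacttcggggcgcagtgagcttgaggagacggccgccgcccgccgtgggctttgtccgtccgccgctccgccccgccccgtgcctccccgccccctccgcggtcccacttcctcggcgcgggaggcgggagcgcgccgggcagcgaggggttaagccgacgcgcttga
Neurod1, chr2:79456752-79456886: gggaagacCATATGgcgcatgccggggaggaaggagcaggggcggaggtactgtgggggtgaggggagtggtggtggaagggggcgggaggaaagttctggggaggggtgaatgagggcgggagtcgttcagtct
Neurod2, chr11:98329649-98329895: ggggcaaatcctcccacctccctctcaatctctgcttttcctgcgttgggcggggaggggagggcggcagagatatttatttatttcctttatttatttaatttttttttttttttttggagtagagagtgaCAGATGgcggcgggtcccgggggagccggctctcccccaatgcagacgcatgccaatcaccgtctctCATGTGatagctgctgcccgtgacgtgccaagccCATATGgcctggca
Tle1, chr4:72200920-72201143: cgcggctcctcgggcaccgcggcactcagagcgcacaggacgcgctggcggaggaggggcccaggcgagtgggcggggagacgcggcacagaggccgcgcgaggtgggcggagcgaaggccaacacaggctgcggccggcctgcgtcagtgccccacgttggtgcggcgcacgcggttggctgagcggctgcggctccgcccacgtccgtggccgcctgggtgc

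Id2 and the first of 3 Tcf12 windows hold the same E-box letters, CAGCTG, which begin 196 and 240 bases before the RefSeq transcript start. The Id2 letters above lie inside the GENCODE span of the gene, 25093799 to 25097140, and not upstream of it. Neurod2 holds 3 matches, of which the nearest begin 51 and 17 bases before its start, and Neurod1 holds 1, at 242 bases. Tle1 has no CANNTG in its window. Of the 9 windows matched to the 7 genes, 7 hold a CANNTG, while 66.2% of all 32851 windows of this length in the table do. CAGCTG itself is in 13% of them. These matches describe letters only.

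Id2 itself (ENSMUSG00000020644.9, protein coding, GRCm38 chromosome 12, 25093799 to 25097140) separated the Id2 virus cells from the GFP virus cells without overlap. Single Id2 virus cells lay between 1446 and 105869 CPM with a median of 26811 CPM, against 0 to 575 CPM with a median of 0.170 CPM in GFP virus cells. Among titles up to 95 the summed level was 42054 CPM with Id2 virus against 95.9 CPM with GFP virus, and among titles over 100 it was 27569 CPM with Id2 virus against 82.7 CPM with GFP virus. Reads of the virus copy and of the cell's own copy cannot be told apart in these counts.

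After kainate, many cells carried Id2 RNA at a level that no control cell reached. Id2 reached 1000 CPM in 0 of 31 control cells, which allows a share of up to 9.68% if 3 cells are taken as the limit of a count of 0, in 37 of 58 day 1 cells and in 3 of 29 day 14 cells. Single control cells lay between 0 and 735 CPM with a median of 0 CPM, day 1 cells between 0 and 3025 CPM with a median of 1212 CPM, and day 14 cells between 0 and 2220 CPM with a median of 241 CPM. The 3 ranges overlap, and 2 of 58 day 1 cells had no Id2 read. In order, the summed levels stood at 37369 CPM with Id2 virus, 1247 on day 1, 422 on day 14, 127.9 in controls and 93.2 with GFP virus. Single cells of each pair of neighbours in that order overlap, also at the top, where the lowest Id2 virus cell at 1446 CPM lies below the highest day 1 cell at 3025 CPM.

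Id2 and microglia RNA were set side by side cell by cell, since the marker levels differ between the groups. Across the 29 day 14 cells, Id2 CPM and the summed microglia markers had a Spearman rho of 0.51, against 0.10 across the 58 day 1 cells. Among cells below 1000 CPM of those markers, Id2 stood at 30.6 CPM in 14 control cells, 1235 CPM in 51 day 1 cells and 182 CPM in 9 day 14 cells. The order of the 3 groups was the same as over all cells. Of those chosen cells, 21.4% of control cells, 96.1% of day 1 cells and 55.6% of day 14 cells had an Id2 read.

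**Figure D1:**
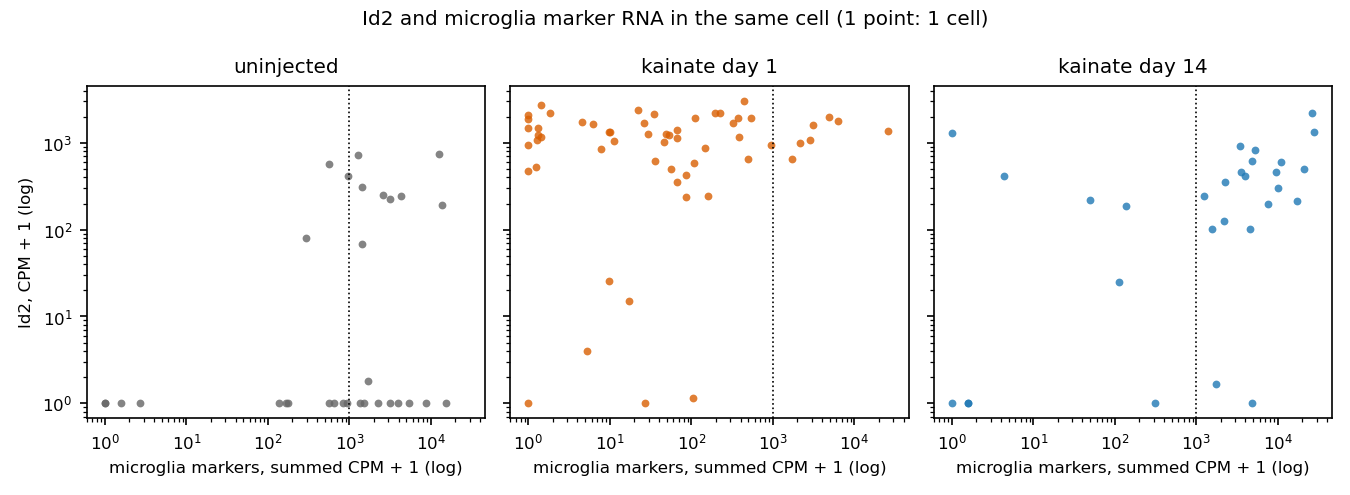
Id2 (vertical, CPM + 1) against the summed CPM + 1 of 14 microglia markers (horizontal), both on log scales, with 1 point for each control, day 1 and day 14 cell; the dotted line marks 1000 CPM. Of the day 1 cells, 51 of 58 lie left of the line, counted at any Id2 level, while 20 of 29 day 14 cells lie right of it.

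Of the 10 genes, 8 were measured between the virus groups, and Id2 itself was the only one called higher, where 10.2% of all 7846 measured genes were called higher. Tle1 was the only one called lower, against 12.6% of all measured genes. A share of 1 in 8 is near the background in both directions, and Id2 was the gene on the virus. The median log2 ratio of the 8 genes was 0.58, Id2 included, beside -0.10 for all measured genes.

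Tle1 (ENSMUSG00000008305.18, protein coding, GRCm38 chromosome 4, 72117142 to 72200919) stood at 31.95 CPM (31.3 to 32.6) in Id2 virus cells, against 248 CPM (246 to 250) in GFP virus cells. That is 7.75-fold lower, a log2 ratio of -2.92. A read was found in 16 of 71 Id2 virus cells, or 22.5% (13.5% to 34%), against 35 of 59 GFP virus cells, or 59.3% (45.7% to 71.9%). After each cell was thinned to 100000 reads, Tle1 was read in 12.7% of Id2 virus cells (5.96% to 22.7%) and 55.9% of GFP virus cells (42.4% to 68.8%). Single Id2 virus cells lay between 0 and 966 CPM with a median of 0 CPM, against 0 to 1541 CPM with a median of 49.6 CPM with GFP virus. The ranges overlap, and 6 Id2 virus cells were at 100 CPM or more, against 25 GFP virus cells.

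The Tle1 difference had the same direction in both sets of titles. It was 23.6 CPM with Id2 virus against 271 CPM with GFP virus among titles up to 95, and 49.4 CPM with Id2 virus against 157 CPM with GFP virus among titles over 100. In the later set 1 cell held 74.2% of the Tle1 reads of the Id2 virus cells. The log2 ratio stayed negative and beyond 2-fold in all 12 alternatives that were run, between -3.46 and -1.65. Tle1 stood at 148 CPM in controls, 144 CPM on day 1 and 153 CPM on day 14 in the groups without virus, but among thinned cells a read was found in 65.5% of controls, 39.7% of day 1 cells and 62.1% of day 14 cells. Reads over 247 of its exon bases could also come from an antisense transcript, Gm11250, since the strand used in counting is not stated.

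**Figure D2:**
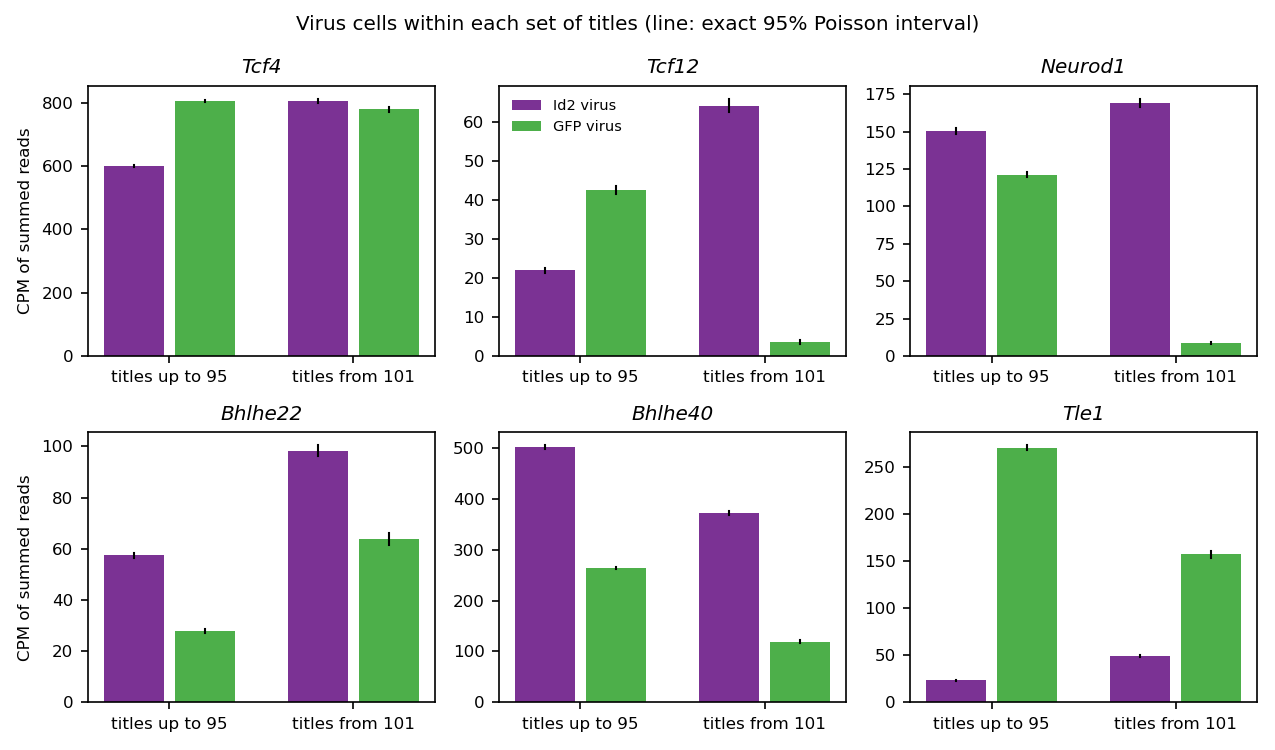
CPM of summed reads (vertical) of 6 genes in Id2 virus cells and GFP virus cells, within titles up to 95 and titles over 100; lines are exact 95% Poisson intervals of counting error. Tle1 is lower with Id2 virus in both sets (23.6 CPM with Id2 virus against 271 with GFP virus, and 49.4 with Id2 virus against 157 with GFP virus), while Tcf12 changes direction between the sets.

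The repressors Bhlhe40 and Bhlhe22 leaned the other way and lay just inside the 2-fold limit. Bhlhe40, a repressor that acts on circadian clock genes, stood at 459 CPM (457 to 462) with Id2 virus against 234 CPM (232 to 236) with GFP virus, a log2 ratio of 0.97. It was 501 CPM with Id2 virus against 264 CPM with GFP virus among titles up to 95, and 372 CPM with Id2 virus against 119.3 CPM with GFP virus among titles over 100. A read was found in 74.6% of Id2 virus cells (62.9% to 84.2%) against 52.5% of GFP virus cells (39.1% to 65.7%), intervals that overlap. Bhlhe22, a repressor used in neuron differentiation, stood at 70.6 CPM (69.6 to 71.7) with Id2 virus against 35.3 CPM (34.6 to 36.1) with GFP virus, a log2 ratio of 0.98. The share of cells with a Bhlhe22 read was 42.3% with Id2 virus against 42.4% with GFP virus, while 14 Id2 virus cells and 5 GFP virus cells were at 100 CPM or more. Both ratios were positive in all 12 alternatives, but past 2-fold in 4 of 12 for Bhlhe40 and 7 of 12 for Bhlhe22.

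The E proteins and the Neurod genes were not called between the virus groups. Tcf4, the E protein most studied in the brain, stood at 666 CPM with Id2 virus against 799 CPM with GFP virus, a log2 ratio of -0.26. It was 599 CPM with Id2 virus against 805 CPM with GFP virus among titles up to 95, and 806 CPM with Id2 virus against 778 CPM with GFP virus among titles over 100, so its direction was not the same in the 2 sets. Tcf12, another E protein, stood at 35.7 CPM with Id2 virus against 34.6 CPM with GFP virus. That near equality held in neither set of titles. Tcf12 was 22 CPM with Id2 virus against 42.7 CPM with GFP virus up to 95, and 64.3 CPM with Id2 virus against 3.49 CPM with GFP virus over 100. Tcf3, the E protein that codes for E12 and E47, was not measured, and 1 cell held 92% of its reads in Id2 virus cells.

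Neurod1, an activator used as granule neurons are made, stood at 156 CPM with Id2 virus against 98.04 CPM with GFP virus, a log2 ratio of 0.67. It was 150.4 CPM with Id2 virus against 121.2 CPM with GFP virus among titles up to 95, and 169 CPM with Id2 virus against 8.56 CPM with GFP virus among titles over 100, where 2 of 16 GFP virus cells had a read. Neurod2, a close relative that acts in maturing and adult neurons, stood at 117.6 CPM with Id2 virus against 83.1 CPM with GFP virus, a log2 ratio of 0.49. A read of it was found in 62.0% of Id2 virus cells (49.7% to 73.2%) and 76.3% of GFP virus cells (63.4% to 86.4%), so share and level point in opposite directions and no order is read from them. Hes5, a repressor downstream of Notch, had 1 read in the Id2 virus cells and 21 reads in 1 GFP virus cell.

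**Figure D3:**
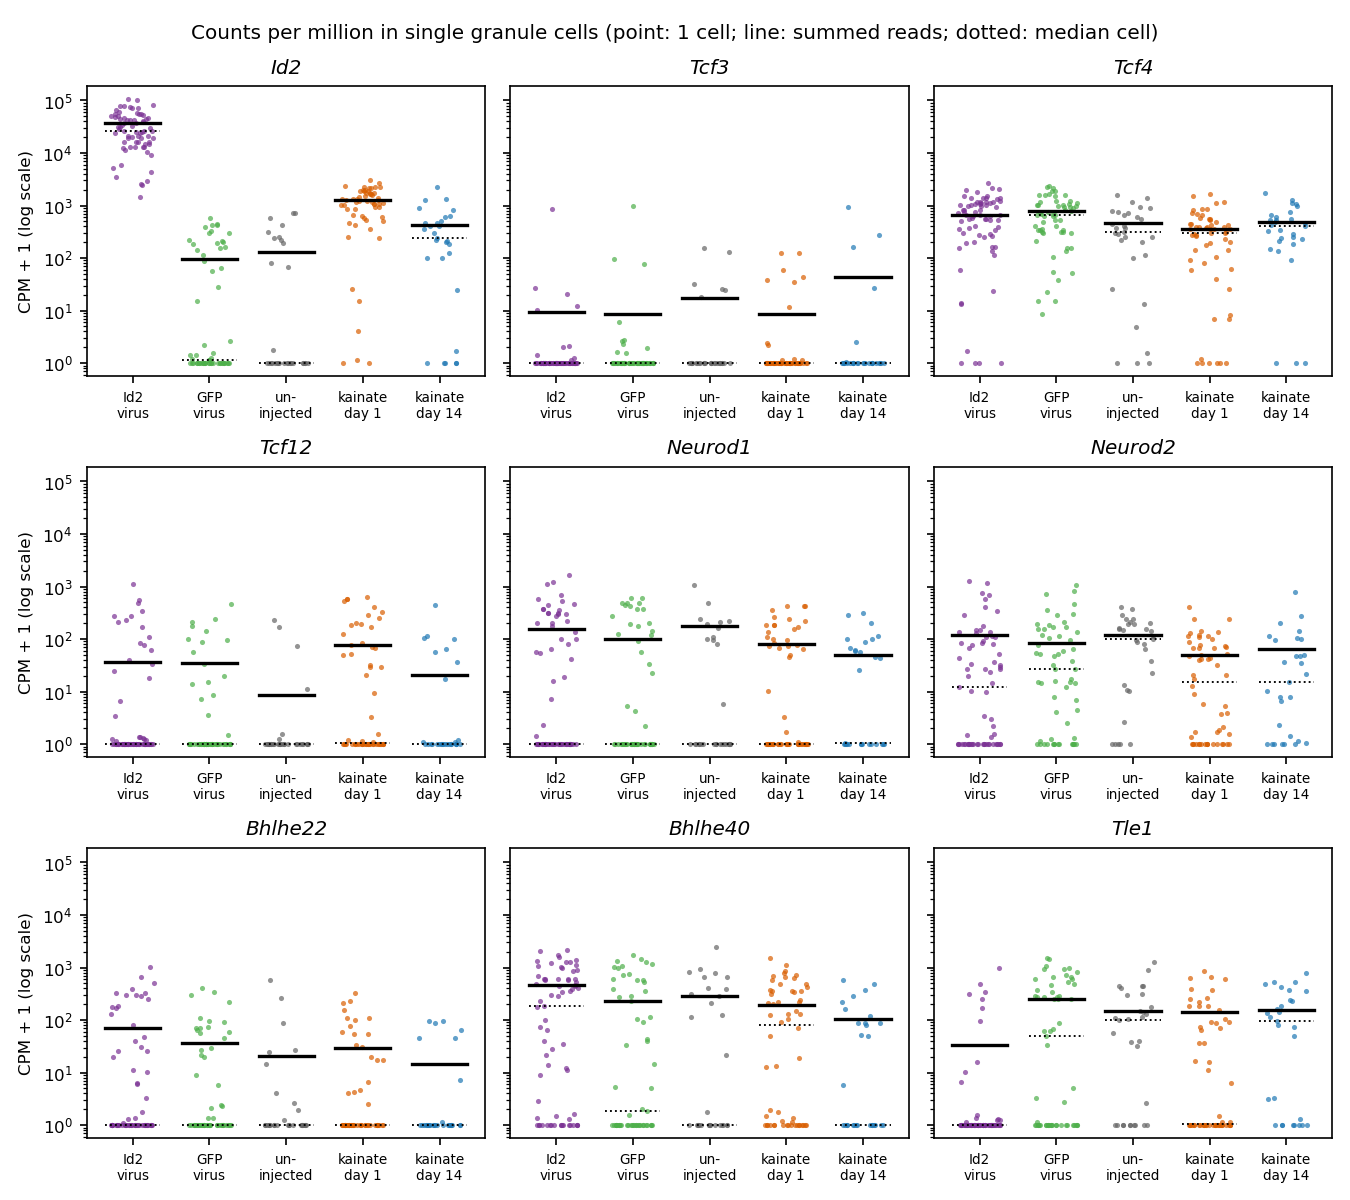
CPM + 1 on a log scale (vertical) of 9 genes in each single cell (points) of the Id2 virus, GFP virus, uninjected, kainate day 1 and kainate day 14 groups; solid lines are the level of summed reads and dotted lines the median cell. Id2 separates Id2 virus cells (1446 to 105869 CPM) from GFP virus cells (0 to 575 CPM), whereas the other genes overlap between all groups, and all of those but Tcf4 have many cells without a read.

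Kainate cells of both days were set against the same 31 control cells, so the comparisons of day 1 and of day 14 share their controls. On day 1, 9 of the 10 genes were measured. Id2 and Tcf12 were called higher, 2 of 9, where 23.2% of all 9079 measured genes were, and Tcf3, Neurod1 and Neurod2 were called lower, 3 of 9, where 15.2% of all were. On day 14, Id2, Tcf3 and Tcf12 were called higher, 3 of 9, where 23.8% of all 9469 measured genes were, and Neurod1 and Bhlhe40 were called lower, 2 of 9, where 15.8% of all were. The counts of higher genes are near the background at day 1, and the others differ from it by only 1 or 2 genes. The median log2 ratio of the 9 genes was -0.40 on day 1 and 0.05 on day 14, beside 0.17 and 0.14 for all measured genes.

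Tcf12 (ENSMUSG00000032228.16, protein coding, GRCm38 chromosome 9, 71842688 to 72111871) was the E protein with the highest ratio on day 1. It stood at 7.52 CPM (6.88 to 8.20) in controls, 75.6 CPM (74.8 to 76.4) on day 1 and 19.7 CPM (19.1 to 20.2) on day 14. Tcf12 was read in 6 of 31 control cells, a share of 19.4% (7.45% to 37.5%). On day 1 it was read in 29 of 58 cells, or 50% (36.6% to 63.4%), and on day 14 in 11 of 29, or 37.9% (20.7% to 57.7%). Control cells had fewer reads. Among thinned cells the share was 13.8% in controls (3.89% to 31.7%) and 37.9% on day 1 (25.5% to 51.6%). It was 27.6% on day 14 (12.7% to 47.2%), and these intervals overlap. Single control cells lay between 0 and 228 CPM, day 1 cells between 0 and 634.5 CPM and day 14 cells between 0 and 450.3 CPM, and all 3 ranges overlap. At 100 CPM or more were 2 of 31 control cells, 13 of 58 day 1 cells and 3 of 29 day 14 cells.

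The Tcf12 control level was uneven. A single cell held 55.8% of its control reads, and without that cell the controls stood at 3.41 CPM. The 22 control cells with J titles stood at 11 CPM, and the 9 control cells with other titles had no read. The day 1 log2 ratio of 3.17 was past 2-fold in all 13 alternatives, down to 1.10 with GFP virus cells in place of the controls. The day 14 log2 ratio of 1.28 turned to -0.78 against GFP virus cells and to -0.19 among cells below 1000 CPM of microglia markers, where Tcf12 stood at 19.6 CPM in controls, 82.9 CPM on day 1 and 17.1 CPM on day 14.

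The other E proteins gave other patterns. Tcf4 stood at 474 CPM in controls, 360 CPM on day 1 and 490.0 CPM on day 14, and a read was found in 90.3% of control cells, 89.7% of day 1 cells and 89.7% of day 14 cells. Tcf4 was not called in either comparison, at log2 ratios of -0.40 and 0.05. Tcf3 stood at 16.2 CPM in controls, 7.51 CPM on day 1 and 43.6 CPM on day 14, and its calls rested on few cells. A single cell held 78.5% of the day 14 reads of Tcf3, which stood at 9.74 CPM without that cell, and none of the 9 day 14 cells below 1000 CPM of microglia markers had a read. Among cells below that limit the log2 ratio of Tcf3 was 0.30 on day 1 and -2.92 on day 14, both opposite to the ratio over all cells, and against J-titled controls it was 0.51 on day 1.

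Neurod1 and Neurod2 stood lower in the kainate cells. Neurod2 (ENSMUSG00000038255.6, protein coding, GRCm38 chromosome 11, 98325415 to 98329648) had 119.6 CPM (116.96 to 122.2) in controls, 48.6 CPM (48 to 49.3) on day 1 and 64.5 CPM (63.6 to 65.5) on day 14. Single control cells lay between 0 and 414 CPM with a median of 97.3 CPM, day 1 cells between 0 and 403 CPM with a median of 14.1 CPM, and day 14 cells between 0 and 792 CPM with a median of 14.0 CPM. The ranges overlap, but the median kainate cell of either day lay well below the median control cell. Among thinned cells a read was found in 23 of 29 controls, or 79.3% (60.3% to 92.01%), in 32 of 58 from day 1, or 55.2% (41.5% to 68.3%), and in 16 of 29 from day 14, or 55.2% (35.7% to 73.6%). Those intervals overlap. The day 1 log2 ratio of -1.28 was negative in all 13 alternatives and past 2-fold in 12 of them, with -0.76 against GFP virus cells as the exception. The day 14 ratio of -0.88 was not called, and it was -0.10 among cells below the microglia marker limit.

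Neurod1 (ENSMUSG00000034701.9, protein coding, GRCm38 chromosome 2, 79452521 to 79456751) stood at 175 CPM in controls, 77.996 CPM on day 1 and 48.01 CPM on day 14. Single control cells lay between 0 and 1085 CPM, day 1 cells between 0 and 427 CPM and day 14 cells between 0 and 313 CPM, with the median cell at 0 CPM in controls and on day 1 and at 0.0686 CPM on day 14. The share of cells with a Neurod1 read ran the other way, 38.7% of controls, 48.3% of day 1 cells and 51.7% of day 14 cells. Among thinned cells the rise was smaller, from 41.4% of controls to 43.1% on day 1 and 48.3% on day 14. No order is read from the shares. A single cell held 40.6% of the control reads. Without the cell with most reads in each group the log2 ratio was -0.80 on day 1, inside the 2-fold limit, against -1.16 with it, and -1.37 on day 14, against -1.85 with it. The ratios of both days were negative in all 13 alternatives. On day 1 the ratio was past 2-fold in only 6 of the 13, and it was -0.33 against GFP virus cells. On day 14 it was past 2-fold in 10 of the 13. Part of its exons, 201 bases, is shared with Cerkl on the same strand, so a few reads may belong to either gene.

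Of the repressors, only Bhlhe40 was called against controls after kainate, and its direction depended on which control cells were used. Bhlhe40 stood at 287 CPM in controls, 195 CPM on day 1 and 101.9 CPM on day 14, and it was called lower on day 14 with a log2 ratio of -1.48. Its control level differed between title series, 402 CPM in the 22 J-titled cells and 37.7 CPM in the other 9 cells. Against those 9 cells the day 14 ratio was 1.41, while it was past 2-fold lower in 12 of 13 alternatives. Bhlhe22 stood at 20.1 CPM in controls, 28.1 CPM on day 1 and 13.6 CPM on day 14, and it was not called. A single cell held 73.3% of its control reads. Hes5 had no read in controls, on day 1 or on day 14, and 3 reads would be 0.0447 CPM in controls, 0.00646 CPM on day 1 and 0.0115 CPM on day 14.

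Between the kainate days, 9 genes were measured. Tcf3 was the 1 gene called higher on day 14, where 17.4% of all 9823 measured genes were, and Id2 and Tcf12 were the 2 called lower, where 16.6% of all were. The log2 ratios of day 14 over day 1 were 2.39 for Tcf3, -1.56 for Id2 and -1.89 for Tcf12. Those of Id2 and Tcf12 were past 2-fold in all 10 alternatives, while that of Tcf3 was 0.67 without the cell with most reads in each group and -3.22 among cells below the microglia marker limit. Bhlhe22 and Bhlhe40 lay just inside the limit, at -0.99 and -0.93. The median log2 ratio was -0.69 for the 9 genes and -0.02 for all measured genes.

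**Figure D4:**
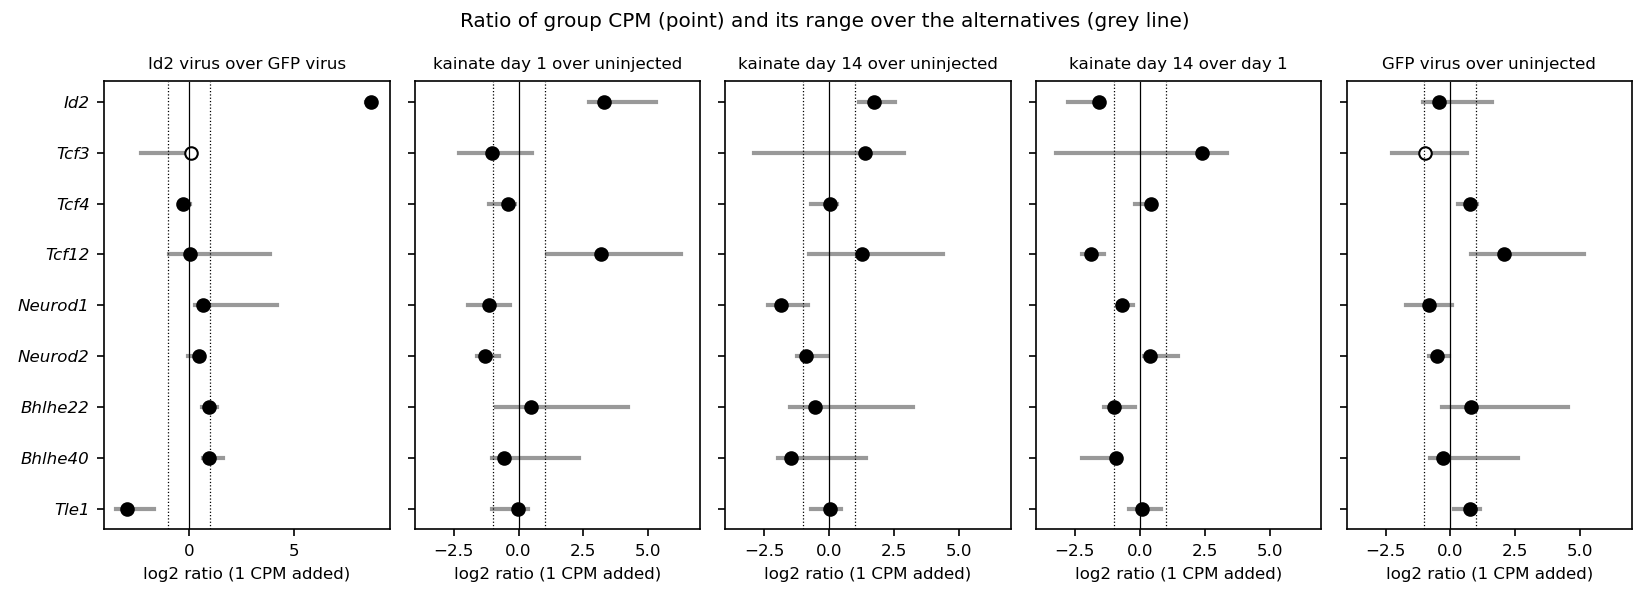
Log2 ratio with 1 CPM added (horizontal) of 9 genes in 5 comparisons; points are the ratio of the summed levels (open where the gene was not measured), grey lines the range over the alternative settings, and dotted lines the 2-fold limits. Tle1 with Id2 virus (-3.46 to -1.65) and Id2 and Tcf12 on day 1 stay on one side of the limit, while the lines of Tcf3 after kainate cross 0.

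Between GFP virus cells and uninjected controls few of these genes were called. Tcf12 was the 1 of 8 measured genes called higher, at 34.6 CPM with GFP virus against 7.52 CPM in controls, where 19.3% of all 8085 measured genes were called higher. None of the 8 was called lower, where 13% of all were. The median log2 ratio of the 8 was 0.23, beside 0.13 for all measured genes. Id2 stood at 93.2 CPM with GFP virus against 127.9 CPM in controls, a log2 ratio of -0.45, which was 1.59 among cells below 1000 CPM of microglia markers. The titles of the 2 groups differ, so an effect of virus and one of batch cannot be told apart.

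Which of the genes met in the same cell was counted after thinning. Id2 and at least 1 E protein had a read in 91.5% of Id2 virus cells (82.5% to 96.8%) and 35.6% of GFP virus cells (23.6% to 49.1%). The same was so of 9 of 29 controls, or 31.03% (15.3% to 50.8%), of 49 of 58 from day 1, or 84.5% (72.6% to 92.7%), and of 21 of 29 from day 14, or 72.4% (52.8% to 87.3%). At least 1 E protein was read in 87.9% to 98.3% of the cells of every group. Id2 and Tcf12 met in 18 of 71 Id2 virus cells, 4 of 59 GFP virus cells, 0 of 29 control cells, 22 of 58 day 1 cells and 8 of 29 day 14 cells. The 0 of 29 allows a share of up to 10.3% by the limit of 3 cells, and the exact 95% interval reaches 11.9%. As a single gene, Id2 was read in 71 of 71 Id2 virus cells and 22 of 59 GFP virus cells. It was read in 10 of 29 controls, 54 of 58 day 1 cells and 23 of 29 day 14 cells. Tcf12 was read in 18, 15, 4, 22 and 8 cells in that order. With Id2 virus, on day 1 and on day 14 its joint count with Id2 equals its own count. The joint counts are bounded by these single counts, so no relation between the genes is read from them.

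**Figure D5:**
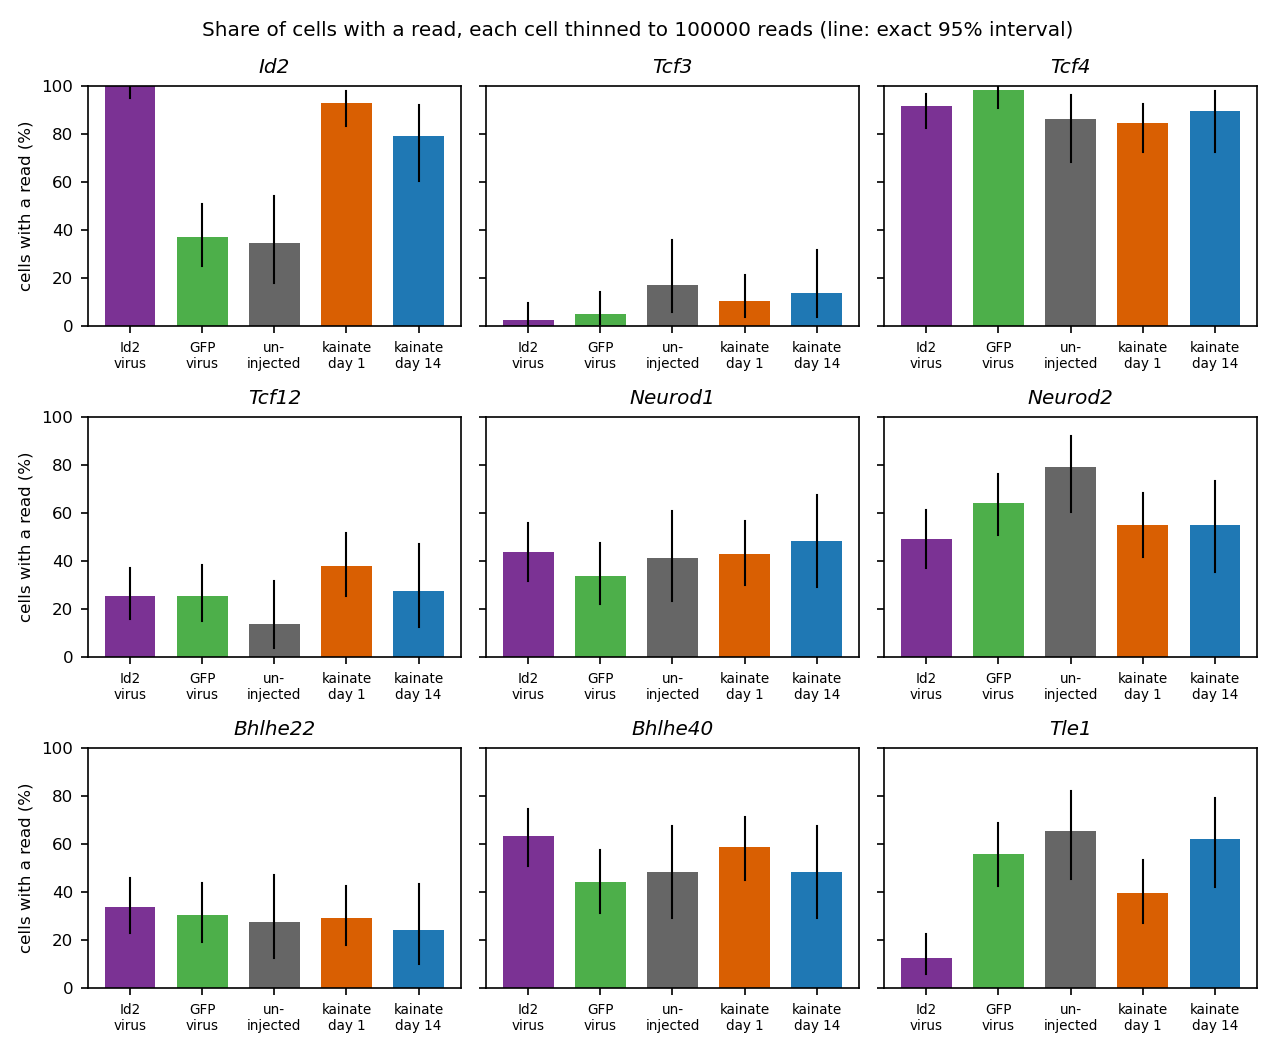
Share of cells with a read (vertical, percent) of 9 genes after each cell was thinned to 100000 reads, in the Id2 virus, GFP virus, uninjected, kainate day 1 and kainate day 14 groups; lines are exact 95% Clopper-Pearson intervals. Tle1 was read in 12.7% of Id2 virus cells and 55.9% of GFP virus cells, and Tcf4 in over 80% of the cells of every group.

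Across the cells of 1 group the rank correlations between the genes were mostly low. Cells of a group share animals that the labels do not name, and low counts weaken any relation, so these Spearman rho values are a description. Between Id2 and the other genes rho ranged from -0.07 to 0.23 over 58 day 1 cells, from -0.12 to 0.05 over 71 Id2 virus cells and from -0.14 to 0.22 over 59 GFP virus cells. Over 29 day 14 cells it ranged from -0.22 for Tcf4 to 0.34 for Bhlhe40 and 0.36 for Neurod1. The partners compared in Id2 virus cells were Tcf4, Neurod1, Neurod2, Bhlhe22 and Bhlhe40, each read in at least 40% of them, so Tle1 was not among them. The highest values between partners were 0.42 for Neurod1 with Neurod2 and 0.40 for Neurod2 with Tle1 on day 1, 0.42 for Neurod1 with Bhlhe40 on day 14, and 0.36 for Bhlhe22 with Bhlhe40 in Id2 virus cells.

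Genes among those most like Id2 across the 58 day 1 cells, by rho among 5122 genes, were Snrpd2 (0.52), Psmb5 (0.51), Sssca1 (0.50), Rnf7 (0.48) and Mlf2 (0.48), where the median gene had 0.04 and the lowest -0.38. They were picked as the highest of many values, and whether such values arise without a relation to Id2 was not tested. Snrpd2 is a part of the splicing machinery and Psmb5 a proteasome subunit. Over the levels of the 4 groups other than Id2 virus, genes among the closest of 9604 were Zbed5, Fam210b, Ppapdc1a, Mapk6 and Bloc1s3, by the root mean square difference of log2 levels (0.10 to 0.25). Mapk6, an atypical MAP kinase also called Erk3, stood at 17.6 CPM in controls, 161 CPM on day 1, 84.7 CPM on day 14 and 13.1 CPM with GFP virus. In Id2 virus cells it stood at 30.6 CPM.

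The wider network was described by 131 genes in 9 lists. Between the virus groups 5 of 51 measured genes were called higher (9.80%, beside 10.2% of all genes) and 8 lower (15.7%, beside 12.6%). On day 1, 15 of 57 were higher (26.3%, beside 23.2%) and 16 lower (28.1%, beside 15.2%). On day 14, 17 of 60 were higher (28.3%, beside 23.8%) and 14 lower (23.3%, beside 15.8%). On day 14 over day 1, 11 of 58 were higher (18.97%, beside 17.4%) and 8 lower (13.8%, beside 16.6%). With GFP virus over controls, 10 of 51 were higher (19.6%, beside 19.3%) and 8 lower (15.7%, beside 13%). Apart from the lower genes after kainate, these shares are near the background. The median log2 ratios were -0.18 between the virus groups, -0.04 on day 1, -0.23 on day 14, 0.02 between the days and -0.02 for GFP virus over controls. The other Id genes, Id1, Id3 and Id4, were not measured in any comparison.

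Known targets of E proteins were a list of 7. Between the virus groups 1 of its 4 measured genes was called higher, where 10.2% of all genes were. On day 1, 3 of 5 were higher and 1 lower, where 23.2% and 15.2% of all were, and on day 14 3 of 5 were higher, where 23.8% of all were. With GFP virus over controls, 2 of 4 were higher and 1 lower, where 19.3% and 13% of all were. Cdkn1a, which codes for the cell cycle inhibitor p21, stood at 75.6 CPM in Id2 virus cells against 3.59 CPM in GFP virus cells, 21.04-fold higher. A read was found in 18 of 71 Id2 virus cells and 4 of 59 GFP virus cells, where 1 cell held 93.4% of the reads. It was 76.7 CPM with Id2 virus against 4.52 CPM with GFP virus among titles up to 95, and 73.3 CPM with Id2 virus among titles over 100, where the 16 GFP virus cells had no read. In the kainate set Cdkn1a stood at 79.8 CPM in controls, 209 CPM on day 1 and 164 CPM on day 14. The Id2 virus level was thus near that of the controls, while the GFP virus level was 22.2-fold below it. The control level differed between title series, 113.6 CPM in the 22 J-titled cells and 6.82 CPM in the other 9 cells. Jag2, a Notch ligand, stood at 6.80 CPM in controls, 21.3 CPM on day 1 and 39.3 CPM on day 14, where 1 cell held 63.0% of the reads.

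The pathway from bone morphogenetic proteins (BMPs) to Id genes had more lower than higher genes after kainate, 5 of 9 lower on day 1 and 5 of 10 lower on day 14, with none higher. Of all measured genes, 15.2% were lower and 23.2% higher on day 1, and 15.8% were lower and 23.8% higher on day 14. Against the same controls, GFP virus cells had 2 of 9 lower and none higher, where 13% and 19.3% of all were. The 2 were Bmpr2 and Smad4, which were also called lower on both kainate days. Acvr2a, an activin and BMP receptor, stood at 323 CPM in controls, 60.6 CPM on day 1 and 46.8 CPM on day 14. Smad7, an inhibitor of the pathway, stood at 77.5 CPM in controls, 23.9 CPM on day 1 and 26.4 CPM on day 14. Chrd, the BMP antagonist chordin, stood at 121.1 CPM in controls, 9.43 CPM on day 1 and 70.4 CPM on day 14. Between the virus groups 1 of 8 was higher and 1 lower, where 10.2% and 12.6% of all genes were. The higher was Smad4, the common partner of Smad proteins, at 87.9 CPM with Id2 virus against 22.7 CPM with GFP virus, and 1 Id2 virus cell held 82.1% of its reads. The lower was Chrd, at 61.7 CPM with Id2 virus against 148 CPM with GFP virus.

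In a list of basic helix-loop-helix proteins with a PAS domain, 2 of 14 genes were called higher and 6 lower on day 1. On day 14, 3 were higher and 5 lower. The list also holds Per1, Per2 and Per3, PAS proteins without the basic helix-loop-helix domain. Each of those was called lower on both days. The shares of all genes were 23.2% higher and 15.2% lower on day 1, and 23.8% higher and 15.8% lower on day 14. Npas4, an activity-regulated factor of neurons, stood at 282 CPM in controls, 51.03 CPM on day 1 and 3.37 CPM on day 14. Npas2, a paralog of Clock, stood at 0.670 CPM in controls, 56.1 CPM on day 1 and 56.4 CPM on day 14, and it was read in 4 of 31 control cells, 27 of 58 day 1 cells and 14 of 29 day 14 cells. Between the virus groups 2 of 14 were higher and 3, Per1 among them, lower, where 10.2% and 12.6% of all genes were.

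In the leucine zipper class, 6 of 16 genes were called higher and 2 lower on day 1, 5 of 16 higher and 2 lower on day 14, and 1 of 14 higher and 3 lower with Id2 virus against GFP virus. Over all genes 23.2% were higher and 15.2% lower on day 1, 23.8% higher and 15.8% lower on day 14, and 10.2% higher and 12.6% lower between the virus groups. Myc stood at 19.6 CPM in controls, 100.4 CPM on day 1 and 43.6 CPM on day 14, and at 239 CPM with Id2 virus against 225 CPM with GFP virus. The sets of titles gave opposite directions for Myc, 190.1 CPM with Id2 virus against 263 CPM with GFP virus up to 95, and 340.2 CPM with Id2 virus against 77.2 CPM with GFP virus over 100. Mycl, its relative, stood at 151 CPM in controls, 14.3 CPM on day 1 and 1.80 CPM on day 14, and 1 cell held 48.2% of the control reads. Srebf1, a regulator of lipid synthesis, was lower with Id2 virus, at 17.7 CPM, against 88.6 CPM with GFP virus, but 1 GFP virus cell held 70.7% of the reads.

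Other binding partners of Id2 and enzymes of its turnover gave 2 of 7 genes higher on day 1, and 2 higher and 1 lower on day 14, near the 23.2%, 23.8% and 15.8% of all genes. Rb1, the retinoblastoma protein, stood at 6.51 CPM in controls, 52.6 CPM on day 1 and 53.6 CPM on day 14. Its relative Rbl2 was the 1 of 5 measured genes called lower with Id2 virus, where 12.6% of all genes were. It stood at 39.3 CPM with Id2 virus against 109.2 CPM with GFP virus, and this difference rested on few cells. Without the cell with most reads in each group it stood at 32.6 CPM with Id2 virus against 65.8 CPM with GFP virus. Among titles up to 95 it stood at 39.5 CPM with Id2 virus against 95.6 CPM with GFP virus, where 1 cell held 59.8% of the GFP virus reads and the others stood at 40.003 CPM. Among titles over 100 it stood at 38.8 CPM with Id2 virus against 162 CPM with GFP virus, where 1 cell held 53.3% of the GFP virus reads. Elk3, a factor whose DNA binding is inhibited by Id proteins, stood at 3.22 CPM in controls, 16.7 CPM on day 1 and 26.9 CPM on day 14.

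Few other repressors, corepressors and neuronal factors were measured. Of 5 Groucho genes with a row, 3 were measured between the virus groups and none was called over all virus cells. Tle4 stood at 94.2 CPM with Id2 virus against 60.5 CPM with GFP virus. It was 66.4 CPM with Id2 virus against 69.1 CPM with GFP virus among titles up to 95, and 152 CPM with Id2 virus against 27.2 CPM with GFP virus among titles over 100. Aes, a short Groucho protein, stood at 129 CPM with Id2 virus against 151 CPM with GFP virus. Aes stood at 199 CPM in controls, 57.8 CPM on day 1 and 125.1 CPM on day 14. It was the 1 of 2 called lower on day 1, where 15.2% of all genes were. Of the Hes and Hey repressors, Hey1 stood at 199 CPM in controls, 56.4 CPM on day 1 and 24.03 CPM on day 14. It stood at 56.3 CPM with GFP virus, as low as on day 1. Its control level differed between title series, 257 CPM in the 22 J-titled cells and 74.2 CPM in the other 9 cells. Hes6 stood at 10.2 CPM in controls, 13.1 CPM on day 1 and 54.2 CPM on day 14. Neurod6, a factor of pyramidal neurons, stood at 12.4 CPM in controls, 0 CPM on day 1 and 82.3 CPM on day 14, where 1 cell held 63.8% of the reads. The summed CPM of 8 markers of CA pyramidal cells was 252 in controls, 176 on day 1 and 714 on day 14, and their part in that level was not tested.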

How the data were processed

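Single cells drawn by patch pipette were sequenced as 1 library each. The submitters' processing notes name Trimmomatic, STAR, featureCounts and the build GRCm38, without versions or a counting strand. One table the authors deposited holds counts for 22800 genes in 291 cells, and another holds a scaled signal for 252 cells. Each unit was settled on the values, because the tables are named the other way round: no count was other than whole, and each of 252 columns of the deposited signal equalled the counts times 1 factor (0.187 to 287). Levels come from the counts, and the signal was used in an alternative.

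The labels list 304 samples. No column carries the title of 13 of them. Of the samples with a column, 39 were labelled as failed, and the failed cells of the 5 groups were used only in an alternative. The main results use 248 passed cells of 5 groups. The 2 contralateral cells of day 1, given below as values, and 2 libraries labelled low_DG were left out. Where a label gives no replicate, numbers only name cells. The 10 genes, the 9 pathway lists, the 7 marker lists and the rules were chosen with earlier results of these data known. Counts were summed per group, scaled to CPM and compared as a log2 ratio with 1 CPM added. Named genes are the 10, up to 4 measured genes of each pathway list by the size of the ratio (fewer are given values here), and the 6 genes most like Id2 by each of 2 measures, of which some are not reported here. The ratio and the calls were run on simulated counts drawn without spread between cells or animals. That run checks the computation only and not how reliable the calls are in these cells. Thinning drew 100000 reads per cell, which left out 2 control cells. Reads have no molecular identifier named in the labels. Exon overlaps come from GENCODE M21 on GRCm38. Python 3.11.15, numpy 2.4.6, pandas 2.3.3 and scipy 1.17.1 were used.

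Markers were described by the summed CPM of each list. Interneuron markers stood at 762 CPM with Id2 virus, 936 with GFP virus, 916 in controls, 757 on day 1 and 1350 on day 14. Astrocyte markers stood at 414 CPM with Id2 virus, 245 with GFP virus, 429 in controls, 163 on day 1 and 230 on day 14. Oligodendrocyte markers stood at 257 CPM with Id2 virus, 186 with GFP virus, 171 in controls, 146 on day 1 and 373 on day 14. Immature neuron markers stood at 371 CPM with Id2 virus, 298 with GFP virus, 134 in controls, 683 on day 1 and 77.4 on day 14. CA pyramidal markers stood at 201 CPM with Id2 virus and 96.7 CPM with GFP virus. The part of those lists in the results was not tested.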

Additional observations from a re-analysis of the deposited data

How the results depend on the processing

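The number of the 10 genes past 2-fold was sensitive to the setting. For Id2 virus over GFP virus it was 2, and it was 4 in the scaled signal, without microglia-rich cells (1000 CPM of microglia markers or more), with Id2 reads left out of the totals and with median-ratio size factors, and 5 among titles over 100. Bhlhe22 was past the limit in each of the 4 settings that gave 4, and Bhlhe40 in 3 of them, not in the scaled signal. For day 1 over controls it was 5, and 3 as a mean over cells, with thinned cells, with failed cells kept and with GFP virus cells as the controls. For day 14 over controls it was 5, and 3 with thinned cells. For day 14 over day 1 it was 3, and 5 in the scaled signal and without microglia-rich cells. For GFP virus over controls it was 1, and 0 in the scaled signal, as a mean over cells and with thinned cells, 3 without the cell with most reads, without microglia-rich cells and with J-titled controls, and 5 with the other controls. Called ratios changed sign for Tcf3 without microglia-rich cells (0.30 on day 1, -2.92 on day 14 and -3.22 for day 14 over day 1) and against J-titled controls (0.51 on day 1), for Tcf12 on day 14 without microglia-rich cells (-0.19) and against GFP virus cells (-0.78), and for Bhlhe40 on day 14 against the other controls (1.41). The cause was not tested. The other called ratios kept their sign in every alternative run. The scaled signal moved the median of all measured genes by 0.13 on the log2 scale for Id2 virus over GFP virus, by -0.11 on day 1 and by -0.18 on day 14, and size factors moved it by -0.15 on day 1, -0.10 on day 14 and -0.15 for GFP virus over controls. No paired analysis was possible because cells carry no animal and their replicate numbers only follow the order of the records. With 1 sample per group no replicate could be left out, and Hes5 is limited by counts of a few reads, Tcf3 and Bhlhe22 by reads that lie mostly in a few cells.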

Other observations

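Of the other side of the brain at day 1, 2 cells passed and entered no comparison. Id2 stood at 396 and 150 CPM in them, between the median (0 CPM) and the highest (735 CPM) of the 31 control cells. Tcf12 stood at 164 and 0 CPM, Tcf4 at 394 and 4.47 CPM, Bhlhe40 at 0 and 714 CPM, Bhlhe22 at 0 and 99.1 CPM, and Tle1 at 159 and 0.154 CPM. Tcf3 and Hes5 had no read in either cell.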
